A study of Mus musculus with 6 samples.

Results

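Kit, Kitl, Cxcl12, Cxcr4 and Ackr3, 5 of the 24470 genes in the table, encode the ligands and receptors of a pair of signalling systems that fetal germ cells depend on. They were chosen by symbol, and all 5 passed the filter on low counts that left 15577 genes to be tested. RNA was sequenced from mouse testes at E12.5, soon after the testis forms, in 3 control samples and 3 Ppp1r3c cKO (conditional knockout) samples. All embryos carried floxed alleles of Ppp1r3c (Ppp1r3c f/f), whose product targets a phosphatase to glycogen and favours its synthesis, on a C57BL/6 background, and the cKO embryos also carried Sf1-Cre, a transgene in which Nr5a1 sequences drive Cre in the somatic cells of the gonad. Controls carried no Cre. For each library 2 gonad pairs were pooled, so a library holds germ cells, Sertoli cells and interstitial cells together, and embryos within a pool cannot be told apart.

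KITL, also called stem cell factor, is made by somatic cells and binds the receptor tyrosine kinase KIT on germ cells, whose migration, proliferation and survival require it. The same receptor serves mast cells, melanocyte precursors and blood progenitors. CXCL12 is a chemokine of stromal cells that guides migrating germ cells to the gonad through its G protein-coupled receptor CXCR4, which endothelial cells also carry. ACKR3 is an atypical receptor that binds and internalises CXCL12 without signalling through G proteins. The comparison asked whether the ligands of the soma and the receptors of the germ cells changed in the same direction when glycogen synthesis in the soma was disrupted.

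The deposited values were counts per gene, which add all transcript forms of a gene together. The places at which the main forms of KITL and KIT differ are shown here because a change of form would not appear in the values below. In the GENCODE annotation of the same build, mm10, the coding exon 6 of Kitl (chr10:100080857-100080940, plus strand, 84 bases) was present in transcript Kitl-202 and absent from Kitl-201. It holds the main site at which membrane-bound KITL is cut to release its soluble form. In Kit, the last 12 bases of coding exon 9 (chr5:75639147-75639158, plus strand) were present in Kit-201 and absent from Kit-204, which gives a longer and a shorter form of the extracellular part. Capitals mark the variable bases, and lower case the 20 bases of the neighbouring exons or exon part on either side.
Kitl exon 6: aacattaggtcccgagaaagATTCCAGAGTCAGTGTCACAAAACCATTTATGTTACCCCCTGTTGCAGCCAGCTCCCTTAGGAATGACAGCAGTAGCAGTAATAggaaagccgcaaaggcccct
Kit exon 9 end: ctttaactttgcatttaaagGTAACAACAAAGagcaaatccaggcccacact

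The stretches ahead of the receptor genes Kit and Cxcr4 are shown because the levels of both were lower on average in cKO testes, and they were taken from RefSeq promoter windows of GRCm38.p6, the build mm10. All 5 genes had a window, of 300 bases from 250 before to 50 after the start site. Only the bases ahead of every annotated transcript are printed, 179 for Kit (chr5:75574737-75574915, plus strand) and 250 for Cxcr4 (chr1:128592300-128592549, minus strand). Capitals mark the GC box GGGCGG and the TATA box TATAAA, each searched on both strands.
Kit upstream: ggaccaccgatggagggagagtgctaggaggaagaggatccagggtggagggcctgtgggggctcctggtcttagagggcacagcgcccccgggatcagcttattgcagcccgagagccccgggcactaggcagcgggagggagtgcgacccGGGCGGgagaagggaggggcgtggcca
Cxcr4 upstream: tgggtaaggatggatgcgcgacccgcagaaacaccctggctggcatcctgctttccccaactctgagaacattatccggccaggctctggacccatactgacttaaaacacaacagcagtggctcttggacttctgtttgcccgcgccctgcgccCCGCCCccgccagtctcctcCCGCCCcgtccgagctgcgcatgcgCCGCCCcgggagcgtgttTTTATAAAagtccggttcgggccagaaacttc
The Cxcr4 stretch held 3 GC boxes and 2 TATAAA matches, which overlap on opposite strands, with the GC boxes on the strand opposite to the gene (CCGCCC as printed), and the Kit stretch held 1 GC box and 0 TATAAA matches. Over whole windows, Kitl had 3 GC boxes, Cxcl12 5 and Ackr3 1. A GC box occurred in 35.7% of 32851 windows and TATAAA in 13.6%. ACGTG, a form of the core of hypoxia response elements, occurred in 19.6% of windows. CAAGGTCA, a form of the site recognised by NR5A1, occurred in 1.56%. Both had 0 matches in the windows of all 5 genes. Other forms of these sites were not searched, such as GCGTG, which occurs in both printed stretches.

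Library totals ranged from 16139487 counts in control replicate 1 to 44145158, and a single value compared between 3 and 3 samples cannot reach an exact two-sided permutation p under 0.1. The targeted gene Ppp1r3c was at 22.1 to 24.4 CPM (counts scaled to a common library size, here by TMM) in control and 4.71 to 5.96 CPM in cKO samples, as the labels imply. Testis markers were present, with Amh at 765 ± 132 CPM (SD, n = 3) in control samples and Sox9 at 165 ± 16.2 CPM (SD, n = 3). The library labelled cKO replicate 3 stood apart. It held 12534 counts of Xist, the RNA that coats the silenced X chromosome in XX cells, against 6 to 41 in the other samples, and the 9 pre-granulosa markers (supporting cells of the ovary) summed to 328 CPM there against 129 to 147 CPM elsewhere. Its 4 Y-linked genes summed to 220 CPM, against 258 to 277 CPM in the other samples. Whether this pool held tissue of an XX embryo was not tested, and every cKO mean below includes it as labelled. The fold changes of the 5 genes and the medians of the gene lists are therefore given with and without it. No source states how the pools relate to litters, so p-values measure the spread between these samples.

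Per kilobase of exon, the ligands were more abundant than the receptors. Kitl had the highest level in control testes, at 55.0 ± 3.05 CPM per kb (SD, n = 3), followed by Cxcl12 at 30.3 ± 1.48, Kit at 17.8 ± 3.98, Cxcr4 at 10.9 ± 0.642 and Ackr3 at 5.08 ± 0.439 CPM per kb (SD, n = 3 each). The order was the same in cKO testes, at 71.7 ± 9.25, 27.3 ± 3.13, 13.1 ± 2.60, 9.44 ± 1.35 and 4.96 ± 0.385 CPM per kb (SD, n = 3 each). Neighbours in this order did not overlap between samples in either group. Exon lengths came from GENCODE transcripts paired with RefSeq, from 1805 bases for Cxcr4 to 7160 for Cxcl12, and they may differ from the gene models that were counted. Each length joined the exons of all paired transcripts, 3 for Cxcl12 and 1 for Kitl. If a shorter form of Cxcl12 prevailed, its level per kb would be higher than given. Its place below Kitl therefore holds for these lengths only.

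By direction, 1 of the 5 genes was higher and 4 were lower in cKO testes. edgeR called 0 of the 5 at an FDR (p adjusted over all tested genes) under 0.05, where it called 0.0385% of all tested genes (0.0321% higher and 0.00642% lower). At an unadjusted p under 0.05 there were 2, Kitl and Kit, where 11.4% of all genes passed. Without cKO replicate 3, 0 of the 5 were called, against 0.0189% of genes, and Kitl alone had an unadjusted p under 0.05, as did 7.83% of genes. DESeq2 called 1, Kitl, where it called 0.779% of the genes to which it gave an adjusted p, and limma-voom called 0, against 0.0449%. The samples of the groups did not overlap for 2 genes, Kitl, higher in cKO, and Cxcr4, lower, where 15.6% of all tested genes did not overlap (8.42% higher and 7.17% lower).

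**Figure D1:**
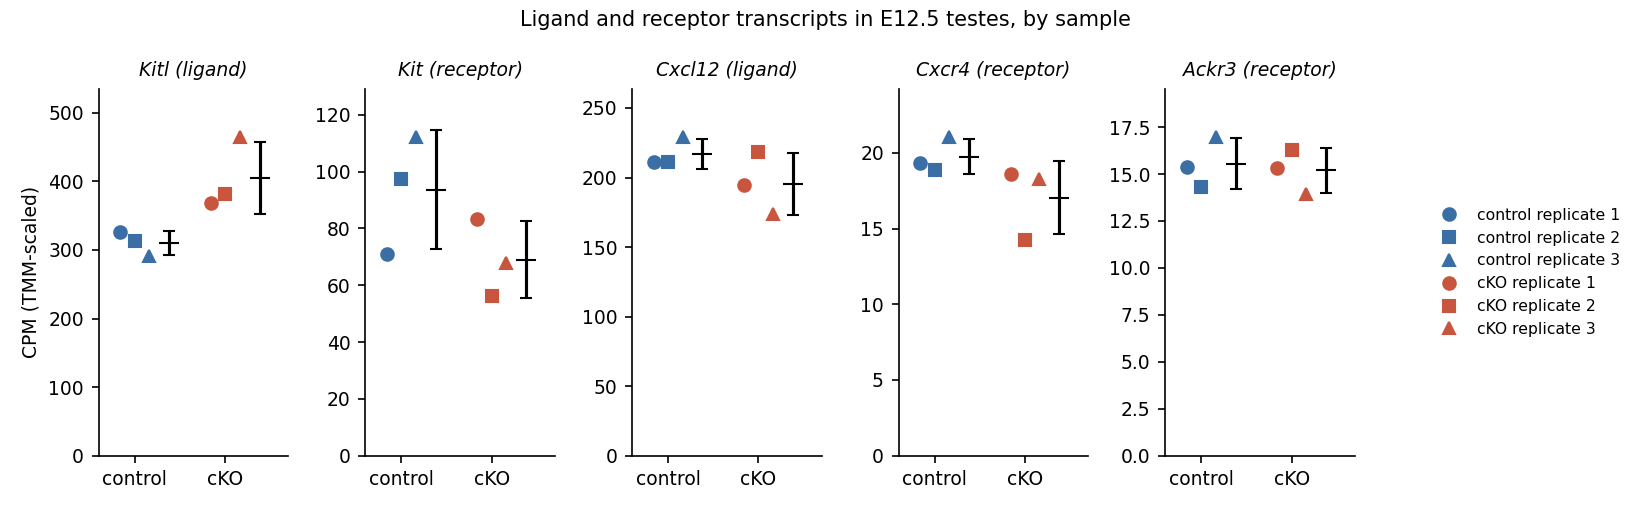
Level of each gene in each library, in CPM on linear axes from 0, with 3 control (blue) and 3 cKO (red) samples and the mean ± SD as black bars. All 3 cKO samples lie above all control samples for Kitl and below them for Cxcr4, whereas the groups overlap for Kit, Cxcl12 and Ackr3.

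The ligand Kitl (Entrez 17311, chromosome 10, 100015824 to 100100412) had the smallest p of the 5 genes. It was at 326, 313 and 292 CPM in control replicates 1 to 3 and at 369, 381 and 465 CPM in cKO replicates 1 to 3. Each cKO sample was above every control sample, and cKO replicate 3 was the highest. The means were 310 ± 17.2 and 405 ± 52.2 CPM (SD, n = 3 each), a difference of 30.5%. The log2 fold change was 0.38 (95% interval 0.19 to 0.58, SE 0.0880, FDR 0.377 by edgeR). An exact two-sided permutation test gave 0.1, the smallest p possible here. It ranked 48 of 15577 genes by edgeR p.

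The call of Kitl depended on the tool. DESeq2 gave a log2 fold change of 0.39 with an FDR of 0.00544, whereas limma-voom gave 0.38 with an FDR of 0.307. Without cKO replicate 3 the log2 fold change was 0.27 (FDR 0.633 by edgeR, SE 0.0680) and the remaining cKO mean was 375 CPM. DESeq2 did not call it without cKO replicate 3 (FDR 0.0987) or control replicate 2 (0.0833) and did without each of the other 4 samples.

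Markers of Sertoli and pre-granulosa cells were examined beside Kitl, and other cell types that could carry it were not. The 15 Sertoli markers summed to 1836 to 2311 CPM in control and 1751 to 2349 CPM in cKO samples. Their median log2 fold change was 0.08, or 0.09 without cKO replicate 3. It fell to 0.02 when control replicate 2 was left out and turned to -0.07 when cKO replicate 2 was. On the log2 CPM scale, Kitl exceeded the mean of these markers by 2.38, 2.56 and 2.46 in the control samples and by 2.70, 2.59 and 3.13 in the cKO samples, a measure chosen after its values were seen. All 3 cKO values were above the control values, with a mean difference of 0.34, or 0.18 without cKO replicate 3. However, cKO replicate 2 lay only just above control replicate 2. How many of all tested genes separate in this measure was not counted. The pre-granulosa markers, among them Wnt4, a signal of ovarian supporting cells, and Fst, which encodes follistatin, had a median log2 fold change of 0.70, which was 0.11 without cKO replicate 3. In cKO replicates 1 and 2, where Kitl was also above all control samples, the pre-granulosa sums were 147 and 146 CPM. These were only just above the control sums of 129 to 144 CPM. The mean log2 level of these markers was 0.230 and 0.186 there, against 0.185 in control replicate 2. Their part in the level of Kitl was not tested.

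The receptor Kit (Entrez 16590, chromosome 5, 75574987 to 75656722) was lower on average in cKO testes, with overlapping groups. It was at 70.9, 97.5 and 112 CPM in the control and at 83.3, 56.0 and 67.7 CPM in the cKO samples. Control replicate 1 lay below cKO replicate 1. The means were 93.5 ± 20.9 and 69.0 ± 13.7 CPM (SD, n = 3 each), and the log2 fold change was -0.45 (95% interval -0.83 to -0.06, SE 0.173, FDR 0.400 by edgeR), with an exact permutation p of 0.2. DESeq2 gave -0.44 with an FDR of 0.512.

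Single samples weighed on Kit. Leaving out 1 sample at a time, its log2 fold change lay between -0.60 and -0.30 and its edgeR FDR between 0.198 and 0.706. DESeq2 called it without control replicate 1 (-0.60, FDR 0.00978) and without cKO replicate 1 (-0.59, FDR 0.0252). Without cKO replicate 3 it was -0.43 (FDR 0.646 by edgeR, SE 0.196).

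Kit was then set against the germ cell markers, since fewer germ cells and less RNA per germ cell cannot be told apart in whole testes. All 21 tested markers were lower in cKO testes, with a median log2 fold change of -0.80 (-0.86 without cKO replicate 3), where the median of all tested genes was -0.0034. edgeR called 0 of them, 16 had an unadjusted p under 0.05, and DESeq2 called Dnd1 and Mael. The 22 markers summed to 687, 1084 and 1128 CPM in the control and to 720, 342 and 555 CPM in the cKO samples. The order of the 6 samples by Kit was their order by the mean log2 level of the tested markers, from control replicate 3 at the top to cKO replicate 2.

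The difference of Kit was smaller than that of most germ cell markers. Of the 21 markers, 18 had a more negative log2 fold change than Kit, among them Dppa3 (-1.24), a factor of the germ line and early embryo, Ddx4 (-0.92), an RNA helicase of germ cells, and Dazl (-0.88), a germ cell RNA-binding protein. On the log2 CPM scale Kit exceeded the mean of the markers by 2.19, 2.01 and 2.17 in the control samples and by 2.37, 2.68 and 2.28 in the cKO samples. All 3 cKO values of this difference were above the control values, with means of 2.12 ± 0.101 and 2.44 ± 0.207 (SD, n = 3 each). The mean difference of 0.32 was 0.40 without cKO replicate 3. The markers themselves were lower in cKO testes, so any gene that fell less than they did gains in this measure. The share of all tested genes that do so was not counted.

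Cells other than germ cells also carry KIT, and their markers were measured beside it. The 14 markers of mast cells and melanocytes summed to 19.8 to 27.3 CPM in control and 30.6 to 32.9 CPM in cKO samples. The mast cell genes Mcpt4 and Fcer1a were at 0 counts in all 6 samples, and 8 of the 14 genes were too low to test. The 6 tested genes had a median log2 fold change of 0.09, or 0.17 without cKO replicate 3, and leaving out control replicates 2 or 3 gave -0.02 or 0.35. The gene with the highest level was Dct, an enzyme of pigment synthesis, at 9.57 ± 6.11 CPM in control and 18.1 ± 2.41 CPM in cKO samples (SD, n = 3 each; log2 fold change 0.89, edgeR FDR 0.403, 0.81 without cKO replicate 3). Pmel, a protein of pigment granules, had a log2 fold change of 0.63 (edgeR FDR 0.424), whereas that of Mlana, another melanocyte gene, was -0.54 (edgeR FDR 0.713), and the mast cell genes Cpa3 and Hdc and the transcription factor gene Mitf had 0.06, 0.11 and 0.07; Pmel, Mlana and Cpa3 were chosen after their values were seen. Blood cell markers summed to 487 to 527 CPM in control and 432 to 597 CPM in cKO samples. The largest part was Hba-a1, a haemoglobin gene, with means of 307 and 298 CPM. Of the 13 markers 6 were higher and 7 lower, with a median log2 fold change of -0.02 (-0.04 without cKO replicate 3). Runx1, of smallest p, had 0.89 (edgeR FDR 0.377, 0.61 without that library). Myb, chosen after its values were seen, had -0.49 (edgeR FDR 0.403, -0.53 without it). The part of these cells in the level of Kit was not tested.

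**Figure D2:**
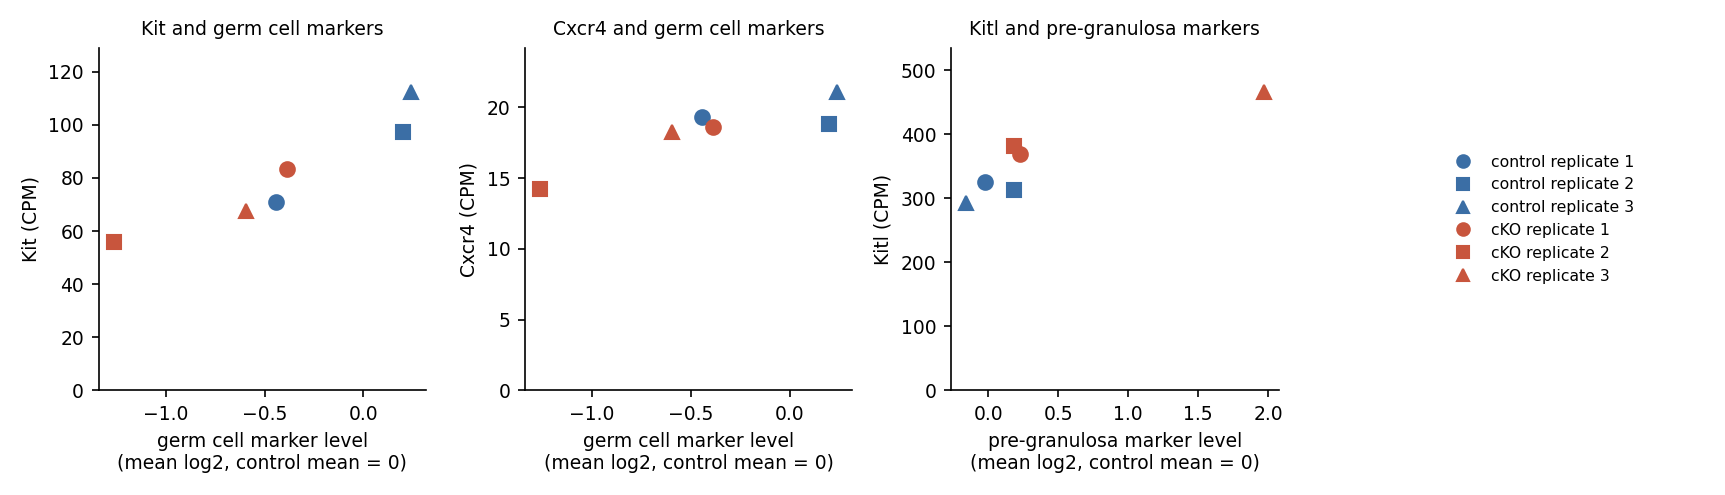
Kit and Cxcr4 against the mean log2 level of 21 germ cell markers, and Kitl against that of 9 pre-granulosa markers, each on the x axis with the control mean at 0 and CPM on the y axis from 0. Kit orders the 6 samples as the germ cell markers do, and cKO replicate 3 lies alone at 1.97 on the pre-granulosa axis with the highest Kitl.

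Within the KIT system the ligand and the receptor had opposite signs. Kitl exceeded Kit, in CPM per kb, by factors of 4.27, 2.99 and 2.42 in the control and 4.12, 6.33 and 6.39 in the cKO samples. The mean factor was 3.23 ± 0.950 in control and 5.61 ± 1.29 in cKO testes (SD, n = 3 each), with control replicate 1 just above cKO replicate 1. On the log2 CPM scale, Kit minus Kitl was 0.81 lower in cKO testes, and 0.70 lower without cKO replicate 3. No test was made of the ratio.

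The ligand Cxcl12 (Entrez 20315, chromosome 6, 117168535 to 117181368) showed a smaller difference. It was at 211, 211 and 229 CPM in the control and at 194, 218 and 174 CPM in the cKO samples. cKO replicate 2 lay among the control samples, and cKO replicate 3 was the lowest. The log2 fold change was -0.15 (95% interval -0.33 to 0.03, SE 0.0812, FDR 0.503 by edgeR, exact permutation p 0.3), and -0.07 without cKO replicate 3 (edgeR FDR 0.840). Without cKO replicate 2 it was -0.24 (edgeR FDR 0.423). The 16 interstitial markers summed to 3609 to 4308 CPM in control and 3649 to 4376 CPM in cKO samples, with a median log2 fold change of -0.02, or 0.04 without cKO replicate 3. On the log2 CPM scale, Cxcl12 exceeded their mean by 0.90, 1.03 and 1.01 in the control and by 0.78, 0.89 and 0.78 in the cKO samples, a measure chosen after its values were seen. All 3 cKO values were below the control values, with a mean difference of -0.17, or -0.15 without cKO replicate 3. The CPM values of Cxcl12 itself overlapped between the groups. How many of all tested genes separate in such a measure was not counted.

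Markers of fetal Leydig cells, the steroid-producing cells of the interstitium, had the same 2 samples at the ends as Cxcl12 had. These 10 markers summed to 381 to 600 CPM in control and 278 to 534 CPM in cKO samples, with the highest sum in control replicate 3 and the lowest in cKO replicate 3. All 9 tested markers were lower on average, with a median log2 fold change of -0.27 and 0 calls by edgeR or DESeq2 (0 at an unadjusted p under 0.05). Without cKO replicate 3 their median was -0.12, without control replicate 3 it was -0.11, and it was -0.50 without cKO replicate 2 and -0.42 without control replicate 1. Their part in the level of Cxcl12 was not tested.

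The receptor Cxcr4 (Entrez 12767, chromosome 1, 128588199 to 128592299) was at 19.3, 18.9 and 21.1 CPM in the control and at 18.6, 14.2 and 18.3 CPM in the cKO samples. Every cKO sample was below every control sample, but cKO replicate 1 lay only just below control replicate 2, and cKO replicate 2 was the lowest. The means were 19.7 ± 1.16 and 17.0 ± 2.44 CPM (SD, n = 3 each). The log2 fold change was -0.21 (95% interval -0.47 to 0.04, SE 0.113, FDR 0.496 by edgeR, exact permutation p 0.1). It was -0.10 without cKO replicate 2, which also had the lowest germ cell markers, and -0.26 without cKO replicate 3.

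By estimated log2 fold change, Cxcr4 differed less than all but 1 of the 21 germ cell markers. Relative to their mean level on the log2 CPM scale it was at 0.32, -0.36 and -0.24 in the control and at 0.21, 0.70 and 0.39 in the cKO samples, which overlap. As for Kit, a gene that fell less than these markers gains in this measure. Endothelial markers, of cells that also carry this receptor, summed to 906 to 1010 CPM in control and 886 to 1038 CPM in cKO samples. Their median log2 fold change was 0.01 over 15 genes, or 0.03 without cKO replicate 3 and -0.06 without cKO replicate 2. Markers of further cell types that may carry it, such as blood cells, were not set beside Cxcr4. Cxcr4 minus its ligand Cxcl12, on the log2 CPM scale, differed by -0.06 between the group means, with an SD of 0.0217 in control and 0.365 in cKO samples. It was -0.20 without cKO replicate 3 and turned to 0.14 without cKO replicate 2.

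The scavenging receptor Ackr3 (Entrez 12778, chromosome 1, 90203980 to 90215724) showed no direction. It was at 15.4, 14.3 and 17.0 CPM in the control and at 15.3, 16.3 and 13.9 CPM in the cKO samples, so the groups overlapped throughout. The log2 fold change was -0.03 (FDR 0.921 by edgeR, SE 0.102, exact permutation p 0.7), and its 95% interval of -0.26 to 0.19 spans folds from 0.834 to 1.14. The sign turned positive without cKO replicate 3 (0.02) or control replicate 3 (0.03). All 21 germ cell markers had a more negative log2 fold change than Ackr3. The marker nearest 0 was at -0.13 and the median of all tested genes at -0.0034, so genes without a change share this place. Over the 6 samples, the log2 CPM of Ackr3 correlated with the mean germ cell marker level at r = -0.05 (Kit 0.96, Cxcr4 0.88). With the mean interstitial marker level it correlated at r = 0.89. Of the 13 lists compared, others also gave Ackr3 values far from 0. They included r = -0.90 with other chemokine genes, -0.79 with blood cell and 0.78 with fetal Leydig markers. Cxcr4 had r = -0.87 with the list of CXCL12 signalling genes. Over 6 samples, such values only describe these libraries.

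**Figure D3:**
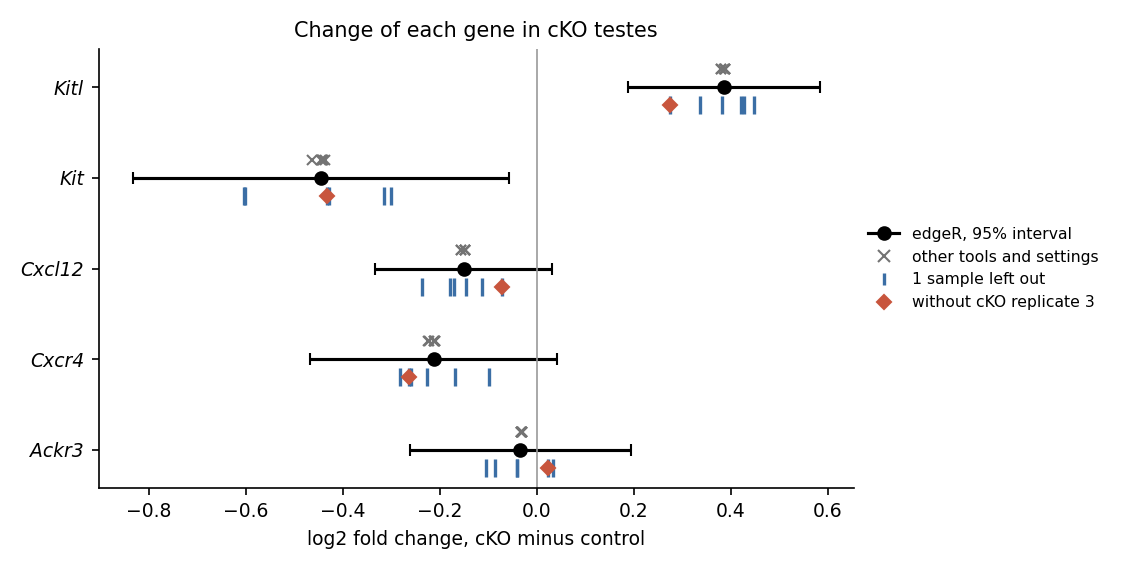
Log2 fold change of each gene, cKO minus control, on the x axis, with the edgeR estimate and its 95% interval in black, other tools and settings as crosses, and fits that leave out 1 sample as ticks. The interval lies above 0 for Kitl and below 0 for Kit and includes 0 for Cxcl12, Cxcr4 and Ackr3, where single samples move Ackr3 across 0.

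For each gene, the 3 genes of most similar profile were taken by Pearson correlation of log2 CPM over the 6 samples, among 12848 genes of mean log2 CPM of at least 1. With 6 samples and so many candidates, high values arise readily, so they only describe these libraries. Kit was closest to Mov10l1 (r = 0.999), an RNA helicase of the germ line piRNA pathway, Mdn1 (r = 0.998) and Nup210 (r = 0.998). Mov10l1 had a log2 fold change of -0.98 (edgeR FDR 0.377). Kitl was closest to Maml3 (r = 0.997), a co-activator of Notch signalling, Adam10 (r = 0.995), a membrane protease, and Tns3 (r = 0.994). Cxcl12 was closest to Gm19461 (r = 0.992), Enc1 (r = 0.989) and Col4a4 (r = 0.989), Cxcr4 to Trim25 (r = 0.996), Skap2 (r = 0.986) and Camta1 (r = 0.985), and Ackr3 to Hcn3 (r = 0.994), Kcns2 (r = 0.992) and A330076H08Rik (r = 0.992).

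For KIT signalling, 41 genes were examined, mainly of the PI3 kinase, AKT and RAS branches and their regulators. The protease gene Adam17 was among them, and all 41 were tested. Of these, 24 were higher and 17 lower, with a median log2 fold change of 0.03 (0.02 without cKO replicate 3, 0.01 without control replicate 1 or 2). edgeR and DESeq2 called 0 of them, and at an unadjusted p under 0.05 there were 4 higher and 2 lower, against 5.56% and 5.8% of all tested genes in those directions. The 3 of smallest p were Foxo1, a transcription factor that AKT inhibits, at 84.0 ± 5.82 CPM in control and 72.1 ± 5.07 CPM in cKO testes (log2 fold change -0.22, SE 0.0748, edgeR FDR 0.377), Gab1, an adaptor of receptor kinases (0.15, edgeR FDR 0.380), and the kinase gene Src (0.19, edgeR FDR 0.380). Without cKO replicate 3 these 3 values were -0.21, 0.13 and 0.16.

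For CXCL12 signalling, 34 genes were examined, mainly of G protein subunits, arrestins, receptor kinases and cytoskeletal effectors. The protease genes Dpp4 and Mmp2 were among them, and all 34 were tested. Of these, 23 were higher and 11 lower, with a median log2 fold change of 0.02 with and without cKO replicate 3. Leaving out cKO replicates 1 or 2 gave 0.04 or 0.0059, and leaving out control replicates 2 or 3 gave 0.01 or 0.0076. edgeR and DESeq2 called 0, and at an unadjusted p under 0.05 there were 3 higher and 0 lower. They were Vav2 and Vav3, guanine nucleotide exchange factors, and Gng2, a G protein gamma subunit. Vav2 was at 74.7 ± 2.76 CPM in control and 89.6 ± 6.96 CPM in cKO testes (SD, n = 3 each). Its log2 fold change was 0.26 (FDR 0.377 by edgeR, SE 0.0698). Vav3 had a log2 fold change of 0.29 (edgeR FDR 0.418) and Gng2 of 0.19 (edgeR FDR 0.423). Without cKO replicate 3 these 3 values were 0.20, 0.18 and 0.11.

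**Figure D4:**
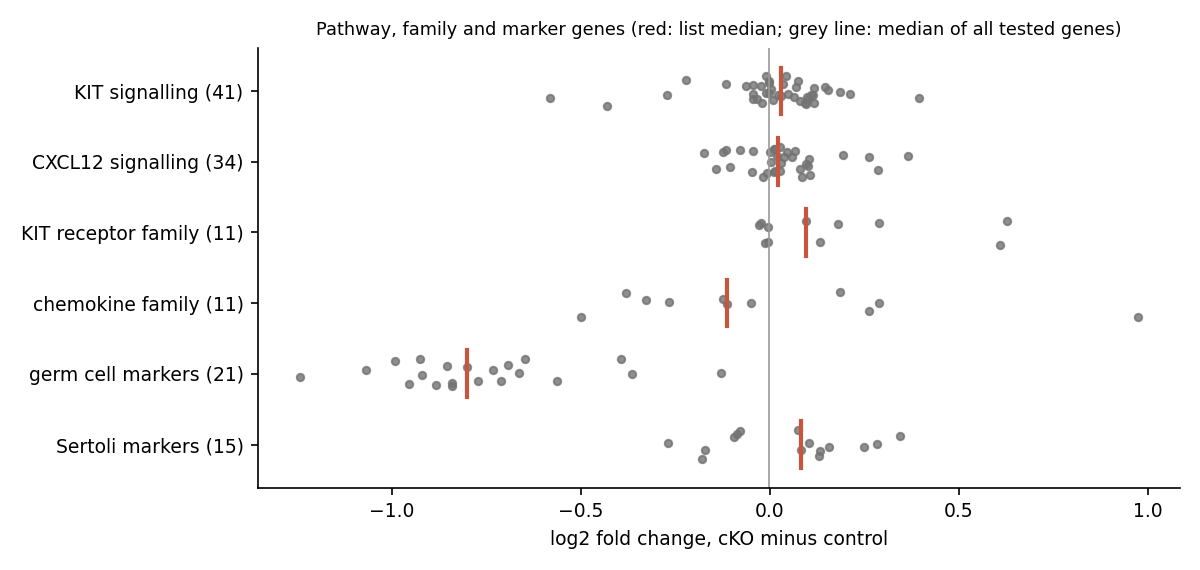
Log2 fold change, cKO minus control, of each tested gene (grey points) in lists of pathway, family and marker genes, with the number of tested genes in brackets. The medians (red) of the KIT and CXCL12 signalling lists lie at 0.03 and 0.02 and that of the germ cell markers at -0.80, with the median of all tested genes (-0.0034) as a grey line.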

How the data were processed

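The deposited table held raw read counts per gene without normalization. The authors prepared stranded mRNA libraries, mapped read pairs to mm10 with STAR (version 2.5 per the labels) and assigned them to RefSeq genes with featureCounts (Subread 1.5.0-p1) in reverse-stranded mode. No other gene of the table overlapped the 5 genes. Groups and replicate numbers came from the sample titles.

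Counts were tested with edgeR (version 4.0.16, R 4.3.3), by its quasi-likelihood F-test between the groups of 3 samples, after filterByExpr (minimum count 10) and TMM scaling. Adjustment over the 15577 tested genes followed Benjamini-Hochberg, and an FDR under 0.05 was called. SE were derived from the F statistic. CPM used TMM-scaled totals, and log2 CPM a prior count of 2. The pipeline was tested on simulated data.

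The members and lists were chosen with earlier results of these data known. Named genes were the 5 members, Ppp1r3c, Xist, list genes called by edgeR or DESeq2, the 3 of smallest p in each pathway or family list, markers chosen by level (3 per list) or smallest p, and the 3 most similar profiles. Of the markers, those that bear on a result are printed. Alternatives were DESeq2 (version 1.42.0), limma-voom (limma 3.58.1), RLE factors, 2 other filters, a replicate block and leaving out each sample. DESeq2 without each sample was added after the data were seen. 0 columns were left unused.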

Additional observations from a re-analysis of the deposited data

How the results depend on the processing

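Kitl stayed higher, and Kit, Cxcl12 and Cxcr4 lower, in every setting that gave a value. Without single samples edgeR gave log2 fold changes of 0.27 to 0.45 for Kitl, -0.60 to -0.30 for Kit, -0.24 to -0.07 for Cxcl12, -0.28 to -0.10 for Cxcr4 and -0.10 to 0.032 for Ackr3, which changed sign without control replicate 3 (0.032) and cKO replicate 3 (0.023). DESeq2 called Kitl (0.39) on all samples, where edgeR did not, and without single samples gave it 0.28 to 0.45, with calls without control replicates 1 (0.42) and 3 (0.35) and cKO replicates 1 (0.45) and 2 (0.43). In the 5 such fits with an adjusted p, Kit was at -0.60 to -0.31, with calls without control replicate 1 (-0.60) and cKO replicate 1 (-0.59). By DESeq2, too, Ackr3 changed sign without control replicate 3 (0.043) and cKO replicate 3 (0.025). Without control replicate 3 it gave Kit, Cxcr4, Ackr3 and Ppp1r3c no adjusted p. Causes were not tested. The number of all genes called higher and lower was 5 and 1 by edgeR, 57 and 54 by DESeq2, 5 and 2 by limma-voom and with no filter, and 3 and 1 with the stricter filter. Without single samples edgeR called 1 to 5 higher and 1 to 3 lower. Same-numbered samples deviated from their group means with correlations of -0.20, -0.27 and -0.13. With 3 samples per group, these values cannot show whether same-numbered samples share a litter. With the replicate block 2 genes of the whole table were called higher and 1 lower, none of them among the 5 (Kit -0.44, FDR 0.777, and Kitl 0.38, FDR 0.777).

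The stricter filter moved the chemokine median to 0.11 and the blood cell median to 0.026, and the KIT family median to 0.049. Without single samples the medians ranged from 0.010 to 0.043 for KIT signalling, 0.0059 to 0.040 for CXCL12 signalling, -0.12 to 0.096 for chemokines, -0.039 to 0.065 for blood cell, -0.021 to 0.35 for mast cell and melanocyte, 0.11 to 0.92 for pre-granulosa, 0.24 to 0.53 for mesonephros, -0.065 to 0.16 for Sertoli, -0.50 to -0.11 for fetal Leydig, -0.094 to 0.048 for interstitial, -0.063 to 0.083 for endothelial, 0.043 to 0.11 for KIT family and -1.03 to -0.55 for germ cell genes. Kit minus Kitl ranged from -1.03 to -0.62, Cxcr4 minus Cxcl12 from -0.20 to 0.14, and Kit and Cxcr4 relative to germ cell markers from 0.20 to 0.40 and 0.40 to 0.74. The mesonephros median was 0.44 on all samples and 0.24 without cKO replicate 3. Control replicate 1 had the fewest counts.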

Other observations

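The relatives of both systems were also measured. Of 11 genes of the receptor family to which KIT belongs and of their ligands, 6 were higher and 5 lower in cKO testes, with a median log2 fold change of 0.10 (0.08 without cKO replicate 3, and 0.04 or 0.05 on leaving out cKO replicates 1 or 2) and 0 calls by edgeR or DESeq2 (1 at an unadjusted p under 0.05). That gene was Pdgfc, a ligand of PDGFRA, at 49.2 ± 3.54 CPM in control and 60.0 ± 3.52 CPM in cKO testes (SD, n = 3 each), and differed by 0.29 on the log2 scale (FDR 0.377 by edgeR, SE 0.0755; 0.0693 by DESeq2), or 0.25 without cKO replicate 3. Its relative Pdgfa had 0.18 (edgeR FDR 0.480), or 0.21 without that library. Flt3l, the ligand of FLT3, had 0.63 (edgeR FDR 0.505), or 0.50 without it, at under 1 CPM in each group mean. The receptors Pdgfra (-0.03), Pdgfrb (-0.01), Csf1r (-0.02) and Flt3 (-0.0048), chosen after their values were seen, had log2 fold changes near 0 with edgeR FDR of 0.923 or more.

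Among 23 other chemokines and chemokine receptors, 11 were high enough to test and 3 (Cxcl2, Cxcl15 and Cxcr1) had 0 counts in all 6 samples. Of the 11, 4 were higher and 7 lower, with a median log2 fold change of -0.11, or -0.12 without cKO replicate 3, which turned to 0.10 without cKO replicate 2 and 0.02 without control replicate 1. edgeR called 0 and DESeq2 called Cx3cl1, which encodes fractalkine, a membrane-bound chemokine. It was at 43.3 ± 2.06 CPM in control and 52.8 ± 2.11 CPM in cKO testes (SD, n = 3 each), and differed by 0.29 on the log2 scale (FDR 0.377 by edgeR, SE 0.0657; 0.0465 by DESeq2), or 0.31 without cKO replicate 3. Its receptor Cx3cr1 had -0.05 (edgeR FDR 0.903). Ackr4, an atypical receptor of other chemokines, had 0.26 (edgeR FDR 0.644) but 0.11 without cKO replicate 3, and Cxcl1, at under 1 CPM in each group mean, had 0.97 (edgeR FDR 0.489), or 1.08 without it.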
